A study of Mus musculus with 61 samples.

Results

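STAT5B Y665F, in which a tyrosine of the SH2 domain is replaced by phenylalanine, was expressed in mouse CD4+ T cells whose own Stat5a and Stat5b had been deleted. The comparison was made between the 3 libraries titled with Y665F in Stat5a/b-null cells and the 3 libraries of the same cells with the empty vector, 6 of the 61 libraries of the series. Both groups came from C57BL/6 mice aged 2 months whose Stat5a/b alleles were floxed and deleted by Cd4-Cre, a transgene that acts at the double-positive stage of the thymus and therefore in CD4 and CD8 cells alike. Naive CD4+ cells, low in CD44 and without CD25, were sorted from pooled lymph nodes and spleens, activated through the T-cell receptor and CD28, transduced and cultured with IL-2. The cells that were sequenced had been sorted again as live CD4+GFP+ cells. The constructs and the empty vector were thus compared in cells that share the deletion, the activation and the cytokine. The comparison asks which transcripts a mutant STAT5B found in leukemia changes when little transcript of the cells' own Stat5a and Stat5b is left. Besides these, 3 groups serve as references below: STAT5B without a mutation and STAT5B N642H, an activating mutation, in null cells, and the empty vector in WT cells, with 3 libraries each. The genotype entry of the labels gives floxed Stat5a/b for the libraries titled WT too, so that these were taken as WT from their titles. The replicates are called independent biological replicates, but no source used here says whether each came from a separate mouse, so p-values measure the spread between these libraries, which may in part be technical.

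STAT5A and STAT5B are latent transcription factors that cytokine receptors of the common gamma-chain family activate. Receptor-bound JAK kinases phosphorylate a tyrosine near the end of the protein, pairs of STAT5 molecules bind each other's phosphotyrosine through their SH2 domains, and the dimers enter the nucleus and bind GAS motifs, TTCNNNGAA. In T cells STAT5 is known to drive the IL-2 receptor alpha chain, feedback inhibitors of the SOCS family, survival and growth genes and Foxp3, and to hold down Bcl6 and the follicular helper program. N642H lies in the SH2 domain as well and is a recurrent mutation of T-cell leukemias.

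The GAS letters were searched in the RefSeq promoters of mouse build GRCm38.p6, from 250 bases before to 30 bases after each listed start. TTCNNNGAA reads the same on both strands, so that 1 search covers both. Of the 279 genes called higher with Y665F, 200 had a promoter in the table, and 25 of them (12.5%) held the motif in at least 1 window. For the genes called lower these numbers were 145 and 11 (7.59%), and for all genes tested 14835 and 1268 (8.55%). Over all 32851 windows of the table the motif was present in 7.83%. A match is a run of letters only, and most genes called either way held none in these 280 bases. The promoters of 4 genes described below are shown, each with the motif in capitals, because they hold the letters next to the start of genes that moved in opposite directions. Cish and Lta hold 2 matches each, Socs3 holds 1, and Bcl6 holds 3 in the window shown. Both listed starts of Bcl6 have a window with the motif, and the one with the most matches is shown.
Cish, chr9:107296409-107296688 on the plus strand: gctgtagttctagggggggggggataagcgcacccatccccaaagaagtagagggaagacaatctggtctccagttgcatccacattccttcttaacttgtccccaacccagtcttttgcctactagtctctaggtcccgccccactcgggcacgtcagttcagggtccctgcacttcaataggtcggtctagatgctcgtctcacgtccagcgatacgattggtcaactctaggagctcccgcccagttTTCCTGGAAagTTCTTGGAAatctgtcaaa
Lta, chr17:35205322-35205601 on the minus strand: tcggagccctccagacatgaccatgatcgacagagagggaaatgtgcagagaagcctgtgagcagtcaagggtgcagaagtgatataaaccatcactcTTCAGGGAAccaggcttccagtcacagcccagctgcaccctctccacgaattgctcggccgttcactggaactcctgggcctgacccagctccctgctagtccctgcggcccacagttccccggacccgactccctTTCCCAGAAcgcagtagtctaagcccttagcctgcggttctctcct
Socs3, chr11:117969337-117969616 on the minus strand: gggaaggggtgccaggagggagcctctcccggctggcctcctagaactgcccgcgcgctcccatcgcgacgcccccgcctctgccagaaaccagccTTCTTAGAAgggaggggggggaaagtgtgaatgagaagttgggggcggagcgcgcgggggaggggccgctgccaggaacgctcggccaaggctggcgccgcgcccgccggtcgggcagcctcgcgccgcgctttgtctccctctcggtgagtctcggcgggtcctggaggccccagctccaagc
Bcl6, chr16:23981254-23981533 on the minus strand: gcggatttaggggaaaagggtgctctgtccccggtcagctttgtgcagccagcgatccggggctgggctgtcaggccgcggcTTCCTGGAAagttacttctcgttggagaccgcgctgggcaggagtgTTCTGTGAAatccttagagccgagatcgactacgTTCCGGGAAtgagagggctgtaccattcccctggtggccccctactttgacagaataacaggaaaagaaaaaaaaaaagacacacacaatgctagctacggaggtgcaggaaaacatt
In Cish the first match begins at the first transcribed base and the next one 11 bases further on. In Lta the matches begin 152 and 16 bases before the listed start, in Socs3 154 bases before it, and in Bcl6 168, 122 and 88 bases before it. The annotated gene Lta spans chr17:35203165-35205578, so that its listed start and both matches lie inside the gene.

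Stat5b (chr11:100780731-100859004 in GRCm38) checks the labels. Its level, in CPM, which relate a gene's reads to the TMM-scaled size of the library, was 2.83, 5.53 and 9.82 CPM with the empty vector and 223, 339 and 287 CPM with Y665F; here and below the values of a group are given for replicates 1, 2 and 3. All Y665F libraries lay above all empty-vector libraries, with a log2 fold change of 5.56 ± 0.36 (SE; adjusted p = 4.82e-08, edgeR quasi-likelihood test with Benjamini-Hochberg adjustment over all genes tested, as for every adjusted p below). The exact two-sided permutation test over these 6 libraries gave p = 0.1, the smallest it can give with 3 against 3. The counts do not separate reads of the vector from reads of the locus. Stat5a, the paralog on the neighbouring stretch of chromosome 11, is not encoded by the vector and was at 1.74, 3.26 and 6.89 CPM with the empty vector and 1.99, 4.03 and 8.49 CPM with Y665F. Its groups overlapped (exact p = 0.6), and in both groups replicate 1 was lowest and replicate 3 highest. WT cells with the empty vector held 137, 165 and 172 CPM of Stat5a, so that the level in null cells with the empty vector was 2.42% of the WT level and with Y665F 3.03%.

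Between 24363231 and 43560815 reads per library were counted on genes in these 6 libraries, and 20113 genes remained for testing once those with fewer than 10 reads in the 15 null libraries together had been dropped. Cd4 was at 1206, 1219 and 1037 CPM with the empty vector and 939, 950.5 and 1083 CPM with Y665F, and the 9 T-cell markers that could be tested summed to between 4324 and 4897 CPM with the empty vector and between 3477 and 3966 CPM with Y665F. The sums of B-cell, neutrophil and erythroid markers reached at most 5.89 CPM in any library, with S100a8 and the 4 globin genes at 0, and those of macrophage markers at most 9.14 CPM, with C1qa and C1qc at 0. CD8 markers summed to at most 22.2 CPM with the empty vector and at most 17.2 CPM with Y665F, NK markers to between 112 and 280 CPM and between 56.4 and 228 CPM with Klra8 and Klra4 at 0, and dendritic cell markers, which include class II genes, to between 197 and 230 CPM and between 147 and 189 CPM. Nearly all of the NK sum was Nkg7, at 111, 127 and 279 CPM with the empty vector and 56.1, 84.9 and 228 CPM with Y665F. The other NK markers tested were at most 0.429 CPM in any of these libraries. Mast cell markers summed to between 4.81 and 6.71 CPM and between 3.08 and 9.27 CPM. The part of the lower T-cell sum in the results below was not tested. In bulk libraries, fewer cells that express a gene and less RNA of it per cell cannot be told apart.

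More genes were called higher than lower with Y665F, and the median rise among them was larger than the median fall. A gene was called where its adjusted p lay under 0.05 and its level differed more than 2-fold (a log2 fold change above 1 or below −1), and 476 of the 20113 genes (2.37%) met this, 279 of them higher with Y665F (1.39%) and 197 lower (0.979%). Of the genes called higher, 140 differed more than 4-fold, against 20 of those called lower, and the median log2 fold change was 2.01 among the former and −1.30 among the latter. The 279 comprised 122 genes with a mean under 1 CPM in the empty-vector libraries, and 46 of the 197 were that low with Y665F. In the empty-vector libraries 10 of the 197 were under 1 CPM. A gene called lower has to be measurable there, so this last count follows in part from the call. Over all genes tested the median was −0.02. TMM scaling largely sets this value near 0, so that it cannot show whether the bulk of genes shifted together. In 459 of the 476, every library of one group lay above every library of the other, which holds for 24.6% of all genes tested. Without a minimum fold change, 1038 genes passed as higher (5.16%) and 889 as lower (4.42%), and 4449 genes had an unadjusted p under 0.05. Without replicate 2 of Y665F the call fell to 315 genes, 212 higher and 103 lower. With the replicate number as a block the split was nearly even, at 341 genes higher and 309 lower.

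**Figure D1:**
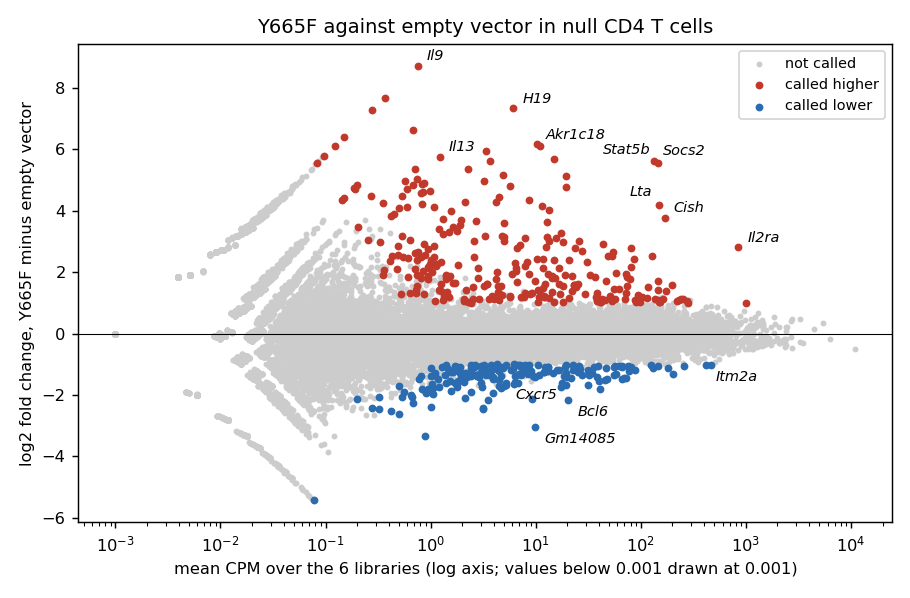
Each point is 1 of the 20113 genes, with its mean CPM over the 3 empty-vector and 3 Y665F libraries on a log axis and its log2 fold change, Y665F minus empty vector, on the vertical axis. The 279 genes called higher, in red, reach far beyond a log2 fold change of 2, while most of the 197 called lower, in blue, lie between −1 and −2.

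Feedback inhibitors of cytokine signaling were among the genes called higher. These SH2-domain proteins bind activated receptors or JAK kinases and are transcribed in response to STATs. Of the 8 genes of the list, 4 were called higher and 0 lower (50%, beside 2.37% of all genes). The median log2 fold change was 0.98 beside −0.02 for all genes tested. It falls in the gap between the 4 genes called and the 4 not called. Socs2, known as a brake on growth hormone signaling, was at 2.91, 5.68 and 7.5 CPM with the empty vector and 268, 338 and 181 CPM with Y665F. Every Y665F library was far above the highest empty-vector library, and the log2 fold change was 5.62 ± 0.34 (adjusted p = 2.27e-08). Cish (CIS), which docks on the IL-2 receptor beta chain, was at 10.4, 26.7 and 32.2 CPM with the empty vector and 349, 372 and 224 CPM with Y665F. The groups were far apart, although replicates 2 and 3 of the empty vector were higher than replicate 1, with a log2 fold change of 3.77 ± 0.32 (adjusted p = 8.92e-07). Socs1, an inhibitor of JAK kinases, was at 8.395, 17.2 and 19.96 CPM with the empty vector and 104, 122 and 57.6 CPM with Y665F. Its replicate 3 was the lowest of the Y665F libraries and still above all controls, with a log2 fold change of 2.64 ± 0.30 (adjusted p = 3.28e-05). Socs3, which binds the receptor chain gp130, was present at lower levels, at 2.57, 6.35 and 9.46 CPM with the empty vector and 23.01, 27.8 and 15.8 CPM with Y665F. The highest empty-vector library held 9.46 CPM and the lowest Y665F library 15.8 CPM, with a log2 fold change of 1.87 ± 0.50 (adjusted p = 0.0236), and the call was lost without replicate 1 or 2 of either group (adjusted p between 0.0697 and 0.0894). Socs4, Socs6 and Socs7 had log2 fold changes close to 0, and Socs5 fell by 0.46 with an adjusted p of 0.0394, below the fold minimum.

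**Figure D2:**
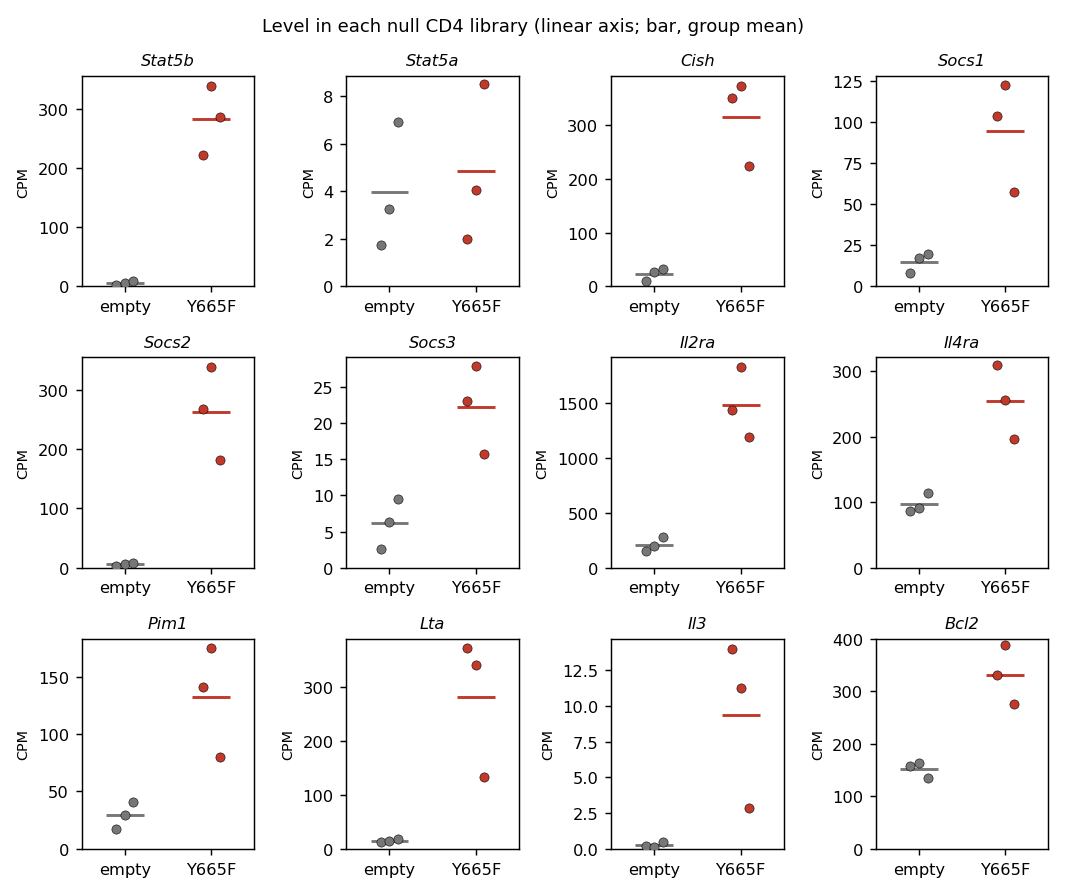
Level in CPM (linear axis) of 12 transcripts in each of the 6 null CD4 libraries, grey for the empty vector and red for Y665F, with a bar at the mean of 3 libraries. Apart from Stat5a, whose groups overlap, every Y665F library is above every empty-vector library, and replicate 3 of Y665F is the lowest of its group for Cish, Socs1, Socs2, Socs3, Il2ra, Il4ra, Pim1, Lta, Il3 and Bcl2.

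Among the receptors of the common gamma-chain family, Il2ra gained the most CPM of the genes called without overlap of the groups. Il2ra (CD25), the chain that gives the IL-2 receptor its high affinity, was at 156, 199 and 277 CPM with the empty vector and 1433, 1833 and 1192 CPM with Y665F. No control exceeded 277 CPM and all Y665F libraries were far above that, and the log2 fold change was 2.82 ± 0.22 (adjusted p = 5.01e-07). Il4ra, the chain that pairs with gamma for IL-4, was at 86.03, 91.7 and 114 CPM with the empty vector and 309.7, 256 and 197 CPM with Y665F. These groups too did not overlap, with a log2 fold change of 1.39 ± 0.17 (adjusted p = 8.64e-05). In total 2 of the 8 genes of the list were called higher and 0 lower (25%, beside 2.37% of all genes). Il2rb, the signaling beta chain, was at 219, 277 and 244 CPM with the empty vector and 430.1, 406 and 290.4 CPM with Y665F, above all controls but short of the fold minimum at 0.61 ± 0.17 (adjusted p = 0.0311). Il2rg, the shared gamma chain, was at 604, 646 and 585 CPM with the empty vector and 485, 554 and 583 CPM with Y665F, a log2 difference of −0.18 ± 0.10 (adjusted p = 0.339). Of the 10 JAK kinases and other STATs tested, 0 were called, beside 2.37% of all genes. At any fold, Stat4 and Jak1 passed as lower, at −0.66 ± 0.15 and −0.39 ± 0.11.

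Cytokine genes were called mostly in the upward direction. Of 24 cytokines made by T cells, 9 were called higher and 1 lower (41.7%, beside 2.37% of all genes), and the median log2 fold change was 0.82. Lta, which encodes lymphotoxin alpha, a TNF family ligand that shapes lymphoid tissue, was the most abundant of those called higher, at 12.2, 14.9 and 19.1 CPM with the empty vector and 372, 341 and 133 CPM with Y665F. Replicate 3 of Y665F held less than the other replicates but remained far above the highest control, and the log2 fold change was 4.2 ± 0.35 (adjusted p = 8.92e-07). Il3, a growth factor of myeloid and mast cells, was at 0.196, 0.121 and 0.5 CPM with the empty vector and 14.03, 11.3 and 2.87 CPM with Y665F. It was near the limit of detection with the empty vector and clearly above it in each Y665F library, with a log2 fold change of 5.15 ± 0.74 (adjusted p = 2.74e-04), or 5.86 without replicate 3 of the controls. The type 2 cytokines and IL-9 were rare transcripts throughout. Il13 was at 0, 0.121 and 0 CPM with the empty vector and 2.93, 2.99 and 1.27 CPM with Y665F, on 4 reads in the controls, with a log2 fold change of 5.75 ± 0.98 (adjusted p = 0.00121). All 4 were in replicate 2, and without it the fitted value was 9.37 against controls at 0, which depends on the prior count and is no bound. Il9, a mast cell and T-cell growth factor, had 0 reads in the 3 control libraries and 169 in the Y665F libraries, which held 1.41, 2.61 and 0.533 CPM. Set against a floor of 3 reads over the control group, its mean was at least 48.9-fold higher (adjusted p = 2.21e-04). Il4 was at 0, 0 and 0.179 CPM with the empty vector and 0.458, 1.54 and 0.492 CPM with Y665F, on 5 control reads, with a log2 fold change of 3.89 ± 1.19 (adjusted p = 0.0473), and lost its call with RLE scaling (adjusted p = 0.0534) or without replicate 1 or 2 of either group (adjusted p between 0.0719 and 0.217). Without replicate 3 of the controls, which held its 5 reads, the fitted value was 7.88, again no bound.

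The other cytokines called higher, named because they complete the list after their values were seen, were Csf2, Lif, Osm and Tnf. Csf2 (GM-CSF), an activator of myeloid cells, was at 0.923, 1.299 and 2.82 CPM with the empty vector and 13.2, 10.9 and 10.5 CPM with Y665F. Lif, an IL-6 family cytokine, was at 22.4, 28.6 and 40.03 CPM with the empty vector and 106, 123 and 116 CPM with Y665F. Osm (oncostatin M), of the same family and a classical STAT5 target, was at 6.91, 8.55 and 8.64 CPM with the empty vector and 30.96, 36.9 and 22.7 CPM with Y665F. In each of these the groups were apart, with log2 fold changes of 2.8 ± 0.33 (adjusted p = 5.03e-05) for Csf2, 1.92 ± 0.16 (adjusted p = 7.81e-07) for Lif and 1.91 ± 0.20 (adjusted p = 1.21e-05) for Osm. Tnf was at 10.3, 11.1 and 17.4 CPM with the empty vector and 30.6, 30.7 and 25.3 CPM with Y665F, with a log2 fold change of 1.16 ± 0.16 (adjusted p = 2.21e-04). Csf1, the macrophage colony-stimulating factor, was the one called lower, at 64.2, 93.7 and 72.2 CPM with the empty vector and 31.8, 35.8 and 43.4 CPM with Y665F and −1.05 ± 0.16 (adjusted p = 4.35e-04). Il2, whose product was added to the cultures, was at 10.97, 10.6 and 22.3 CPM with the empty vector and 12.3, 6.95 and 24.8 CPM with Y665F; the groups overlapped (adjusted p = 1). Ifng, the signature cytokine of type 1 helper cells, also overlapped, at 0.784, 2.33 and 3.36 CPM with the empty vector and 0.886, 5.81 and 1.85 CPM with Y665F.

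**Figure D3:**
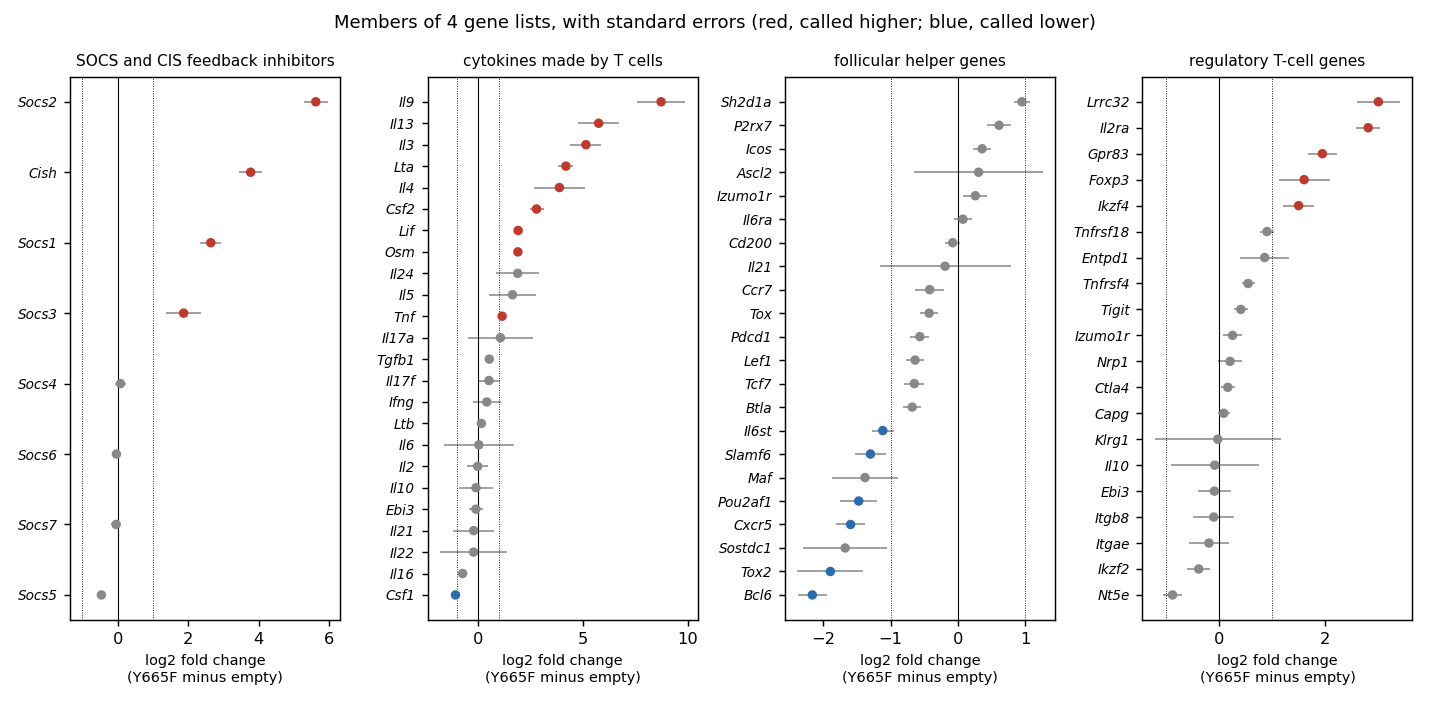
Log2 fold change, Y665F minus empty vector, with its standard error for every tested member of 4 gene lists; red members were called higher, blue members lower, and dotted lines mark the fold minimum of 1 in each direction. The SOCS, cytokine and regulatory T-cell lists hold 4, 9 and 5 members called higher, and the follicular helper list holds 6 called lower and 0 called higher.

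Follicular helper genes were called in the downward direction alone. These genes equip CD4 cells to enter B-cell follicles and help B cells. Of 22 tested, 6 were called lower and 0 higher (27.3%, beside 2.37% of all genes), with a median log2 fold change of −0.60. At any fold 10 passed as lower and 2, Sh2d1a and P2rx7, as higher, beside 4.42% and 5.16% of all genes. Bcl6, the transcriptional repressor that defines the lineage, was at 26.4, 36.1 and 37.9 CPM with the empty vector and 6.66, 6.33 and 9.56 CPM with Y665F. The highest Y665F library was far below the lowest control, with a log2 fold change of −2.16 ± 0.21 (adjusted p = 6.74e-06). Cxcr5, the receptor that leads cells into follicles, was at 8.12, 8.13 and 7.46 CPM with the empty vector and 2.38, 2.54 and 2.95 CPM with Y665F, with a log2 fold change of −1.59 ± 0.22 (adjusted p = 1.73e-04). Its groups did not overlap. Pou2af1, a coactivator known from B cells and also expressed in follicular helper cells, was at 101, 131 and 57.6 CPM with the empty vector and 35.1, 42.5 and 26.5 CPM with Y665F, and replicate 3 was lowest in both groups (log2 difference −1.47 ± 0.27, adjusted p = 0.00238). Slamf6, a surface receptor of the SLAM family, was at 379, 298 and 181 CPM with the empty vector and 131, 96.2 and 122 CPM with Y665F, with a log2 fold change of −1.3 ± 0.23 (adjusted p = 0.00147). Il6st (gp130), the shared receptor chain for IL-6, was at 205, 199.5 and 126 CPM with the empty vector and 72.2, 82.1 and 90.9 CPM with Y665F, with a log2 fold change of −1.12 ± 0.16 (adjusted p = 2.70e-04). Tox2, an HMG-box factor, was at 1.76, 3.596 and 6.07 CPM with the empty vector and 0.886, 0.854 and 1.35 CPM with Y665F. Its controls spread from 1.76 to 6.07 CPM, and a log2 fold change of −1.89 ± 0.49 (adjusted p = 0.0195) did not hold without replicate 2 or 3 of the empty vector or replicate 1 or 2 of Y665F (adjusted p between 0.0517 and 0.092). Il21, the helper cytokine of the lineage, was near 1 CPM and overlapped, at 0.336, 0.816 and 1.36 CPM with the empty vector and 0.183, 0.474 and 1.6 CPM with Y665F.

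**Figure D4:**
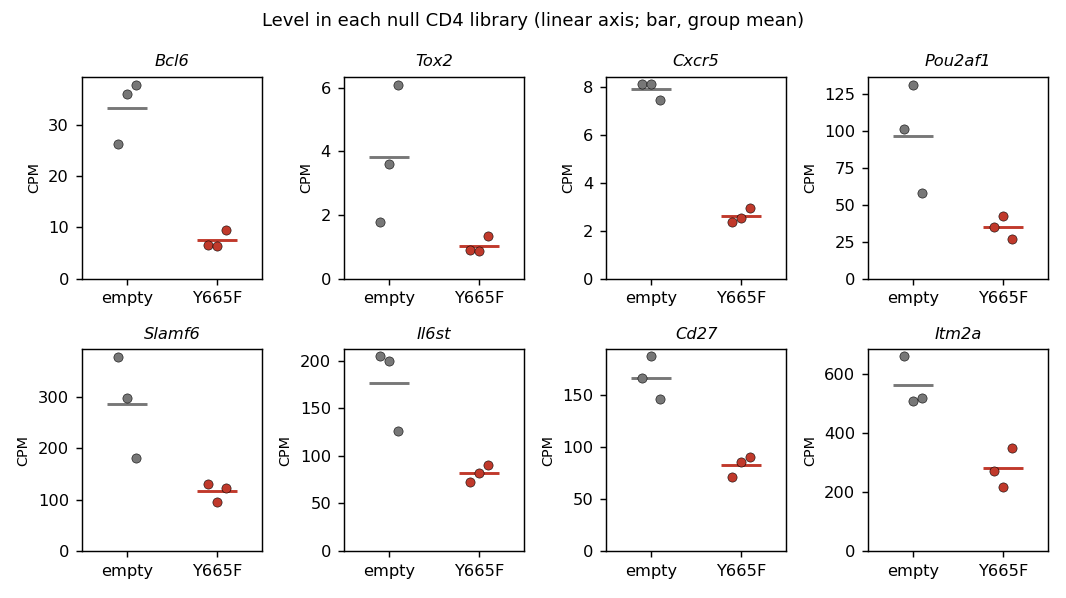
Level in CPM (linear axis) of 8 transcripts that were called lower, in each of the 6 null CD4 libraries, with a bar at the mean of 3 libraries. All Y665F libraries, in red, lie below all empty-vector libraries, in grey; the gap is small for Tox2, between 1.35 CPM and 1.76 CPM.

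Other lineage regulators moved in both directions. Of 35 transcription factors of helper lineages, 5 were called higher and 2 lower, the latter being Bcl6 and Tox2 (20% called, beside 2.37% of all genes). Batf3, a basic leucine zipper factor, was at 0.196, 0.574 and 1.25 CPM with the empty vector and 8.74, 5.43 and 3.61 CPM with Y665F. The rise was from near absence, with a log2 fold change of 3.18 ± 0.66 (adjusted p = 0.00523), or 3.96 without replicate 3 of the controls. Ikzf4 (Eos), a partner of Foxp3, was at 8.73, 16.3 and 13 CPM with the empty vector and 28.8, 47.6 and 31.2 CPM with Y665F, with a log2 fold change of 1.5 ± 0.29 (adjusted p = 0.00327). Foxp3, the regulator of the regulatory T-cell lineage, was at 3.47, 11.3 and 3.29 CPM with the empty vector and 18.1, 21.6 and 15.3 CPM with Y665F. Replicate 2 of the controls came close to the lowest Y665F library, and a log2 fold change of 1.61 ± 0.48 (adjusted p = 0.0406) was not kept without replicate 1 or 3 of the controls or replicate 1 or 2 of Y665F (adjusted p between 0.0982 and 0.137). Irf8, an interferon regulatory factor, was at 32.9, 51.5 and 157 CPM with the empty vector and 217, 191 and 235 CPM with Y665F. Its replicate 3 with the empty vector stood nearer to the Y665F libraries than to the other controls, and a log2 fold change of 1.41 ± 0.43 (adjusted p = 0.0462) was lost with RLE scaling, filterByExpr, DESeq2 or a fit of the 6 libraries alone (adjusted p between 0.0591 and 0.0837) and without any single library other than that one (adjusted p between 0.0809 and 0.192). Without the control library that stood closest to Y665F, the log2 fold change was 2.44 for Foxp3 (replicate 2) and 2.36 for Irf8 (replicate 3). Myc is described with the growth genes below. Tbx21 (T-bet), the type 1 regulator, was at 4.42, 10.2 and 25.4 CPM with the empty vector and 5.71, 10.8 and 23.3 CPM with Y665F, and Gata3, the type 2 regulator, at 59.8, 77.2 and 71.9 CPM with the empty vector and 61.97, 96.3 and 108 CPM with Y665F. Neither was called: Tbx21 was lowest in replicate 1 and highest in replicate 3 of both groups, and Gata3 differed by 0.35 ± 0.18 (adjusted p = 0.263). Prdm1 (Blimp-1), the antagonist of Bcl6, was at 0.588, 3.203 and 1.96 CPM with the empty vector and 1.68, 2.99 and 3.24 CPM with Y665F and overlapped.

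Regulatory T-cell genes were represented on the higher side. Of 20 tested, 5 were called higher and 0 lower, namely Foxp3, Ikzf4, Il2ra, Lrrc32 and Gpr83, with a median of 0.23 for the list. The share called was 25%, beside 2.37% of all genes. Lrrc32 (GARP), which tethers latent TGF-beta on the cell surface, was at 1.57, 2.48 and 4.86 CPM with the empty vector and 24.9, 28.6 and 17.1 CPM with Y665F. The lowest Y665F library held 17.1 CPM against 4.86 CPM in the highest control, with a log2 fold change of 3.01 ± 0.41 (adjusted p = 1.84e-04). Gpr83, an orphan receptor of regulatory T cells, was at 3.36, 3.81 and 3.5 CPM with the empty vector and 13.6, 18.4 and 9.11 CPM with Y665F, with a log2 fold change of 1.95 ± 0.27 (adjusted p = 2.21e-04). Ctla4, an inhibitory receptor of the same cells, was at 209, 272 and 201 CPM with the empty vector and 245, 265 and 256 CPM with Y665F and overlapped.

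Markers of naive and quiescent cells moved both ways, 2 higher and 2 lower of 22 (18.2% called, beside 2.37% of all genes). Igfbp4, a binding protein of insulin-like growth factors, was at 23.5, 48.2 and 26.4 CPM with the empty vector and 143, 149 and 58.8 CPM with Y665F, with a log2 fold change of 1.84 ± 0.32 (adjusted p = 0.0014). Klf6, a zinc finger factor, was at 80.8, 85.7 and 131 CPM with the empty vector and 183, 199 and 228 CPM with Y665F, with a log2 fold change of 1.04 ± 0.18 (adjusted p = 0.00114). Btg2, an antiproliferative gene, was lower at 93.1, 102 and 73.9 CPM with the empty vector and 36, 42.1 and 49.6 CPM with Y665F, with a log2 fold change of −1.08 ± 0.15 (adjusted p = 1.67e-04). Dapl1 was at 70.9, 81.9 and 74.96 CPM with the empty vector and 20.4, 33.4 and 53.2 CPM with Y665F, where replicate 3 of Y665F approached the controls; a log2 fold change of −1.09 ± 0.33 (adjusted p = 0.0415) was lost with RLE scaling (adjusted p = 0.0515) and without any single library other than replicate 3 of Y665F (adjusted p between 0.0682 and 0.199). Tcf7 (TCF-1), which keeps T cells in a stem-like state, was below all controls at 352, 500.0 and 333 CPM with the empty vector and 215, 275 and 267 CPM with Y665F but short of the fold minimum (log2 difference −0.65 ± 0.15, adjusted p = 0.0104). Ccr7 and Klf2, which guide recirculation through lymph nodes, overlapped between the groups. Ccr7 was at 584, 699 and 763 CPM with the empty vector and 363, 444 and 723 CPM with Y665F and Klf2 at 70.8, 81.5 and 50.7 CPM with the empty vector and 74.9, 75.6 and 36.3 CPM with Y665F. Within each replicate number Ccr7 was lower with Y665F. With the block it differed by −0.46 ± 0.115 (adjusted p = 0.00735), short of the fold minimum, and Klf2 by −0.15 ± 0.16 (adjusted p = 0.615).

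Costimulatory and chemokine genes added a few members each. Of 22 receptors of the checkpoint and CD28 families, Cd80 was called higher and Cd160 and Slamf6 lower. The share called was 13.6% in this list and 6.25% among chemokine receptors and integrins, beside 2.37% of all genes. Among chemokine ligands it was 21.4%, and in the TNF family list below 7.41%. Cd80 (B7-1), a ligand of CD28 and CTLA-4, was at 11.5, 12.1 and 24.2 CPM with the empty vector and 53.1, 57.9 and 61.3 CPM with Y665F, with a log2 fold change of 1.85 ± 0.22 (adjusted p = 4.97e-05). Cd160 was at 51.4, 43.9 and 50.96 CPM with the empty vector and 18.8, 19.3 and 30.5 CPM with Y665F, with a log2 fold change of −1.1 ± 0.16 (adjusted p = 3.03e-04). Pdcd1 (PD-1) was lower in each library but within the fold minimum, at 321, 255 and 211 CPM with the empty vector and 191, 165 and 176 CPM with Y665F (log2 difference −0.57 ± 0.14, adjusted p = 0.0155), and Lag3 overlapped, at 144, 258 and 224 CPM with the empty vector and 97.5, 111 and 154 CPM with Y665F (log2 difference −0.79 ± 0.22, adjusted p = 0.0317). Ccr4, a chemokine receptor of type 2 and regulatory cells, was the one gene called higher of 32 chemokine receptors and integrins, at 46.03, 43.9 and 23.7 CPM with the empty vector and 139, 107 and 86.8 CPM with Y665F and 1.55 ± 0.24 (adjusted p = 5.28e-04); Cxcr5 was the one called lower. Cxcr3, a receptor of type 1 cells, was at 1.37, 2.598 and 1.96 CPM with the empty vector and 1.22, 1.26 and 1.15 CPM with Y665F and not called (log2 difference −0.70 ± 0.38, adjusted p = 0.292). Of 14 chemokine ligands 3 were called higher. Ccl3 (MIP-1 alpha) was at 7.39, 9.25 and 25 CPM with the empty vector and 52.01, 50.6 and 54.4 CPM with Y665F, with a log2 fold change of 1.92 ± 0.31 (adjusted p = 8.62e-04). Ccl4 (MIP-1 beta) was at 10.6, 11.6 and 29.4 CPM with the empty vector and 39.7, 34.9 and 52.2 CPM with Y665F, with a log2 fold change of 1.3 ± 0.32 (adjusted p = 0.0154), a call that did not hold without replicate 1 or 2 of the controls (adjusted p = 0.0692 and 0.0883). Without replicate 3 of the controls the log2 fold change was 2.66 for Ccl3 and 1.93 for Ccl4. Ccl22, a ligand of CCR4, was called although replicate 1 of Y665F lay among the controls, at 0.05597, 0.453 and 0.321 CPM with the empty vector and 0.183, 5.29 and 2.67 CPM with Y665F (log2 difference 3.3 ± 0.89, adjusted p = 0.0242), and the call was lost without replicate 1 or 2 of the controls or replicate 2 of Y665F and in a fit of the 6 libraries alone (adjusted p between 0.0545 and 0.174). Xcl1 (lymphotactin) was at 1.23, 1.84 and 2.61 CPM with the empty vector and 0.428, 0.877 and 1.89 CPM with Y665F and overlapped. Within each replicate number it was lower with Y665F, and with the block it differed by −0.94 ± 0.31 (adjusted p = 0.036), short of the fold minimum. Of 27 TNF family ligands and receptors in a list that holds neither Lta nor Tnf, Tnfrsf13b (TACI) was called higher, at 11.9, 10.2 and 7.14 CPM with the empty vector and 26.6, 20.5 and 13.1 CPM with Y665F, and Cd27 lower, at 166, 188 and 146 CPM with the empty vector and 70.96, 85.6 and 90.6 CPM with Y665F; both were close to the fold minimum, at 1.04 ± 0.26 (adjusted p = 0.0167) and −1.01 ± 0.14 (adjusted p = 2.24e-04). Tnfrsf13b was not called without replicate 2 or 3 of the controls or replicate 1 of Y665F (adjusted p between 0.0555 and 0.118). Tnfrsf9 (4-1BB) was at 450.4, 395 and 488 CPM with the empty vector and 506, 496 and 508 CPM with Y665F, apart by a small margin and not called.

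Among 25 receptors for IL-12, IL-18, IL-1, IL-6 and interferons, Tgfbr3 (betaglycan) and Il10ra were called higher and Il6st lower (12% called, beside 2.37% of all genes). Tgfbr3 was at 7.304, 8.19 and 9.14 CPM with the empty vector and 19.6, 15.98 and 19.3 CPM with Y665F, with a log2 fold change of 1.15 ± 0.15 (adjusted p = 1.14e-04). Il10ra was at 4.42, 7.19 and 9.25 CPM with the empty vector and 16.2, 15.9 and 10.6 CPM with Y665F, with a log2 fold change of 1.04 ± 0.27 (adjusted p = 0.021), a call that was lost without replicate 1 or 2 of either group (adjusted p between 0.0672 and 0.0931). Il12rb2, a chain of the IL-12 receptor, was at 3.13, 8.04 and 14.1 CPM with the empty vector and 8.37, 24.3 and 24.6 CPM with Y665F. The groups overlapped, yet within each number Y665F was higher, and the fold change of 1.19 ± 0.65 (adjusted p = 0.306) became 1.27 ± 0.26 (adjusted p = 0.00161) when the replicate number entered the fit as a block. In that fit 5 genes of the list were called, 3 higher and 2 lower.

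Bcl2, Pim1, Pim3 and Myc were called higher among survival and growth genes. Bcl2, the anti-apoptotic founder of its family, was at 157, 164 and 134 CPM with the empty vector and 332, 388 and 277 CPM with Y665F. All Y665F libraries exceeded all controls, with a log2 fold change of 1.13 ± 0.14 (adjusted p = 8.00e-05). Bcl2l1 (Bcl-xL) was at 121, 114 and 189.7 CPM with the empty vector and 269, 233 and 327 CPM with Y665F, also apart, but just under the fold minimum at 0.97 ± 0.18 (adjusted p = 0.00276). Bmf, a pro-apoptotic BH3-only gene, was lower at 16.04, 10.1 and 8.75 CPM with the empty vector and 6.02, 3.13 and 7.096 CPM with Y665F (log2 difference −1.12 ± 0.31, adjusted p = 0.0272), which made 1 gene called in each direction of 18. The call of Bmf was lost without replicate 1 or 2 of either group and in a fit of the 6 libraries alone (adjusted p between 0.0518 and 0.159). Of the 18 PIM kinases, Myc and G1 regulators, 3 were called higher and 0 lower. The share called was 11.1% in the BCL2 family and 16.7% in this list, beside 2.37% of all genes. Pim1, a survival kinase and STAT5 target, was at 17.2, 29.7 and 40.7 CPM with the empty vector and 141, 175 and 80.4 CPM with Y665F, with a log2 fold change of 2.18 ± 0.32 (adjusted p = 3.09e-04). Pim3 was at 25.1, 27.98 and 35 CPM with the empty vector and 74.1, 67.3 and 46.8 CPM with Y665F, with a log2 fold change of 1.1 ± 0.16 (adjusted p = 2.48e-04). Myc, the growth regulator, was at 78.3, 90.01 and 138 CPM with the empty vector and 213, 256 and 200.1 CPM with Y665F, with a log2 fold change of 1.13 ± 0.18 (adjusted p = 8.04e-04). Ccnd2 (cyclin D2) was at 756, 668 and 699 CPM with the empty vector and 1015, 1035 and 1110.3 CPM with Y665F, apart but below the minimum fold (log2 difference 0.57 ± 0.10, adjusted p = 0.00161).

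Cell cycle and replication genes differed by less than the fold minimum, and those that passed without it were higher. Of 40 tested, 10 passed as higher and 0 as lower at any fold, beside 5.16% and 4.42% of all genes tested. The log2 fold changes lay between −0.02 and 0.71 with a median of 0.24, so that 0 were called. Mki67 was at 1292, 1201 and 918 CPM with the empty vector and 1321, 1418 and 1101 CPM with Y665F and Mcm2 at 322, 295 and 251 CPM with the empty vector and 409, 391 and 303 CPM with Y665F, and for both the groups overlapped. With the block, Mcm2 differed by 0.34 ± 0.08 (adjusted p = 0.0042) and Mki67 by 0.18 ± 0.09 (adjusted p = 0.22). Slc7a5, a large neutral amino acid transporter, was the one gene called of 19 transporters, at 62.04, 86.5 and 108 CPM with the empty vector and 201, 211 and 153 CPM with Y665F and 1.14 ± 0.20 (adjusted p = 0.00137). Its partner chain Slc3a2 (CD98) was at 99.9, 119 and 138 CPM with the empty vector and 132, 133 and 146 CPM with Y665F and overlapped (log2 difference 0.21 ± 0.11, adjusted p = 0.292). In the glycolysis and hypoxia list of 25, Egln3, an oxygen-sensing prolyl hydroxylase, was called higher at 13.6, 14.1 and 53.9 CPM with the empty vector and 217, 146 and 74.9 CPM with Y665F. Replicate 3 of the 2 groups stood at 53.9 CPM and 74.9 CPM, much nearer to each other than replicates 1 and 2 did. The log2 fold change of 2.43 ± 0.60 (adjusted p = 0.0153) lost its call without replicate 1 or 2 of the controls or replicate 1 of Y665F (adjusted p between 0.0687 and 0.0832), and it was 3.4 without replicate 3 of the controls. Slc2a1 (GLUT1) and Hk2 were above all controls, at 0.72 ± 0.19 (adjusted p = 0.0246) and 0.92 ± 0.27 (adjusted p = 0.0383), and were not called. Of 31 genes of cholesterol and fatty acid synthesis, Scd1 was called higher at 5.54, 3.47 and 4.96 CPM with the empty vector and 30.2, 7.47 and 8.08 CPM with Y665F. The log2 fold change was 1.71 ± 0.49 (adjusted p = 0.0328), and without replicate 1 of Y665F it was 0.74 (adjusted p = 0.38). The call was also lost without any 1 of the controls or in a fit of the 6 libraries alone (adjusted p between 0.0568 and 0.138). The 1 gene called in each of these lists made 5.26% of the transporters, 4% of the glycolysis and hypoxia list and 3.23% of the cholesterol list. Over all genes the share was 2.37%.

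Of 23 genes of the T-cell receptor and its proximal signaling, 10 passed as lower and 2 as higher at any fold, beside 4.42% and 5.16% of all genes tested, with a median of −0.25 and 0 past the fold minimum; Cd3e was at 419.6, 533 and 484 CPM with the empty vector and 294, 359.7 and 371 CPM with Y665F (log2 difference −0.49 ± 0.12, adjusted p = 0.0145). Of 25 granzymes, perforin and other cytotoxic genes 0 were called, beside 2.37% of all genes, and Cst7 alone passed at any fold. Gzmb (granzyme B) was at 10.4, 23.5 and 62.1 CPM with the empty vector and 15.2, 22.2 and 71.8 CPM with Y665F and Prf1 (perforin) at 0.979, 2.08 and 3.36 CPM with the empty vector and 1.34, 1.94 and 3.199 CPM with Y665F, and in both genes replicate 1 was lowest and replicate 3 highest in each group, while the groups overlapped. The 14 dual-specificity phosphatases and Sprouty genes likewise held 0 called; Dusp6, a brake on ERK, was at 148, 178 and 169.8 CPM with the empty vector and 91.8, 105 and 118 CPM with Y665F (log2 difference −0.65 ± 0.14, adjusted p = 0.00539).

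Of 41 interferon-induced genes tested, 1 was called higher and 1 lower (4.88%, beside 2.37% of all genes), with a median log2 fold change of −0.45. Ifit3 was at 0.476, 0.635 and 0.679 CPM with the empty vector and 2.51, 2.51 and 1.56 CPM with Y665F, with a log2 fold change of 1.89 ± 0.41 (adjusted p = 0.00713). Gbp4, a guanylate-binding GTPase, was at 79.8, 110.0 and 118 CPM with the empty vector and 29.9, 50.2 and 69.6 CPM with Y665F, with a log2 fold change of −1.04 ± 0.32 (adjusted p = 0.0443). Isg15, a ubiquitin-like protein, was at 1.96, 3.05 and 5.61 CPM with the empty vector and 1.83, 1.61 and 5.21 CPM with Y665F, and Mx1, an antiviral GTPase, at 0.756, 2.02 and 0.464 CPM with the empty vector and 0.611, 0.664 and 0.574 CPM with Y665F; both overlapped. In the fit with the block, 1 gene was called higher and 5 lower, the added ones being Mx2, Oas1a, Gbp6 and Iigp1, named because the block called them, at −1.26 ± 0.29 (adjusted p = 0.00374), −1.39 ± 0.43 (adjusted p = 0.0287), −1.22 ± 0.16 (adjusted p = 2.53e-05) and −1.21 ± 0.16 (adjusted p = 2.70e-05). Gbp4 was not called with RLE scaling (adjusted p = 0.0564), nor without replicate 2 or 3 of the controls or replicate 1 or 2 of Y665F (adjusted p between 0.106 and 0.209).

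The rankings in this and the following paragraphs took only called genes that averaged at least 1 CPM and whose groups did not overlap. Separation of the groups was thus a condition of ranking a gene and adds no evidence. Several of the largest rises lay outside these lists or in small families. H19, an imprinted long noncoding RNA that is silent in most adult tissues, was at 0.05597, 0.121 and 0.0357 CPM with the empty vector and 28.9, 6.9 and 0.861 CPM with Y665F. Its Y665F libraries spread from 0.861 to 28.9 CPM, yet each was above all controls, with a log2 fold change of 7.34 ± 1.28 (adjusted p = 0.00143), or 5.71 without replicate 1 of Y665F. Akr1c18, an aldo-keto reductase that inactivates progesterone, was at 0.2798, 0.212 and 0.357 CPM with the empty vector and 21.8, 28.6 and 10.5 CPM with Y665F, with a log2 fold change of 6.17 ± 0.51 (adjusted p = 7.81e-07). Other members of its family rose with it, Akr1c12 at 2.603, 2.57 and 2.54 CPM with the empty vector and 19.99, 29.5 and 19.4 CPM with Y665F and Akr1c13 at 10.2, 8.97 and 11.4 CPM with the empty vector and 47.2, 57.8 and 49.5 CPM with Y665F, with log2 fold changes of 3.16 ± 0.22 (adjusted p = 1.10e-07) and 2.34 ± 0.14 (adjusted p = 2.27e-08). These paralogs are alike in sequence, and reads that fit several of them may have been split or dropped, so that their separate levels are uncertain. Of 7 members tested, 3 were called higher and 0 lower (42.9%, beside 2.37% of all genes), and the other 4 averaged at most 0.0954 CPM in either group.

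Nav1, a cytoskeletal protein of growing neurons, was at 0.1399, 0.242 and 0.607 CPM with the empty vector and 26.95, 28.3 and 9.68 CPM with Y665F. Its controls did not exceed 0.607 CPM, and the log2 fold change was 6.09 ± 0.57 (adjusted p = 3.17e-06). Tead1, a DNA-binding partner of YAP, was at 0.252, 0.635 and 0.857 CPM with the empty vector and 21.9, 49.4 and 16.3 CPM with Y665F, with a log2 fold change of 5.69 ± 0.59 (adjusted p = 1.21e-05). Kcnj8, a pore subunit of ATP-sensitive potassium channels, was at 1.29, 1.299 and 0.643 CPM with the empty vector and 47.8, 53.2 and 13.2 CPM with Y665F, with a log2 fold change of 5.12 ± 0.68 (adjusted p = 1.47e-04). In all 3, replicate 3 was the lowest of the Y665F libraries. Shroom3, an actin-binding protein, was at 0.02798, 0.0604 and 0.25 CPM with the empty vector and 11.1, 6.59 and 2.17 CPM with Y665F, Stxbp6 (amisyn), a regulator of vesicle fusion, at 0.168, 0.0906 and 0.179 CPM with the empty vector and 10.6, 7.59 and 3.53 CPM with Y665F, and Cdhr3, a cadherin-related protein, at 0.05597, 0.0302 and 0.25 CPM with the empty vector and 6.36, 5.34 and 1.56 CPM with Y665F. Their log2 fold changes were 5.94 ± 0.67 (adjusted p = 2.91e-05), 5.61 ± 0.45 (adjusted p = 6.48e-07) and 5.35 ± 0.75 (adjusted p = 2.21e-04). Without replicate 3 of the controls, Nav1 was at 6.82, Shroom3 at 7.15 and Cdhr3 at 6.57 on the log2 scale.

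Ranked by the CPM gained, among called genes without overlap of the groups, abundant transcripts came to the front. Beside Il2ra, Cish, Stat5b, Lta and Socs2, these were Vim, Notch2, Malt1, Phgdh and Cad. Vim (vimentin), an intermediate filament protein, was at 701, 604 and 683 CPM with the empty vector and 1541, 1342 and 1096 CPM with Y665F. Notch2, a receptor of cell fate decisions, was at 70.97, 119 and 109 CPM with the empty vector and 227, 397 and 265 CPM with Y665F. Malt1, a protease downstream of the T-cell receptor, was at 188, 186 and 166 CPM with the empty vector and 379, 419 and 323 CPM with Y665F. These 3 genes had log2 fold changes of 1.00 ± 0.13 (adjusted p = 1.24e-04), 1.57 ± 0.32 (adjusted p = 0.00468) and 1.05 ± 0.13 (adjusted p = 9.02e-05). Phgdh, the first enzyme of serine synthesis, was at 213, 178 and 168 CPM with the empty vector and 443, 401 and 281 CPM with Y665F, and Cad, which starts pyrimidine synthesis, at 128, 170.1 and 176 CPM with the empty vector and 353, 397 and 276 CPM with Y665F. Their log2 fold changes were 1.01 ± 0.20 (adjusted p = 0.00371) and 1.11 ± 0.21 (adjusted p = 0.00251). With the block, Vim and Phgdh fell just below the fold minimum, at 0.99 ± 0.11 (adjusted p = 2.52e-06) and 0.99 ± 0.09 (adjusted p = 3.54e-07).

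Ranked by the CPM lost, among called genes without overlap of the groups, the following were lower beside those of the lists. Ms4a4b, a membrane protein of the CD20 family that is abundant in T cells, was at 689.5, 641 and 519.8 CPM with the empty vector and 259, 272 and 389 CPM with Y665F. Itm2a, a membrane protein of activated and helper T cells, was at 661, 509.8 and 518 CPM with the empty vector and 272, 218 and 349.8 CPM with Y665F. Ms4a6b, a relative of Ms4a4b, was at 342, 394 and 296 CPM with the empty vector and 129, 158 and 214 CPM with Y665F. In each the highest Y665F library was below the lowest control, with −1.01 ± 0.18 (adjusted p = 0.0016), −1.01 ± 0.17 (adjusted p = 0.00132) and −1.04 ± 0.18 (adjusted p = 0.00142). Rgs10, a regulator of G-protein signaling, was at 268, 234 and 238 CPM with the empty vector and 95.6, 92.1 and 153 CPM with Y665F (log2 difference −1.12 ± 0.19, adjusted p = 0.00113). Ifi203, an interferon-inducible gene of the AIM2-like receptor family, was at 210.4, 209 and 177 CPM with the empty vector and 81.4, 93.1 and 111 CPM with Y665F (log2 difference −1.06 ± 0.14, adjusted p = 1.00e-04), Klhl24, a ubiquitin ligase adaptor, at 142, 142 and 84.7 CPM with the empty vector and 48.2, 50.5 and 62.3 CPM with Y665F (log2 difference −1.2 ± 0.18, adjusted p = 4.29e-04), and Snn (stannin) at 119, 124 and 72.8 CPM with the empty vector and 39.6, 44.5 and 31.4 CPM with Y665F (log2 difference −1.45 ± 0.19, adjusted p = 1.03e-04). Cd27, Itm2a and Ms4a4b sat so near the fold minimum that RLE scaling or DESeq2 put them at −0.991 to −0.998, with adjusted p at most 0.0019.

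Among called genes that averaged at least 1 CPM and whose groups did not overlap, the largest falls by fold were mostly in transcripts of low level. Gm14085, a predicted gene, was at 19.4, 28.01 and 5.14 CPM with the empty vector and 2.41, 2.54 and 1.39 CPM with Y665F. Its replicate 3 was the lowest of either group and the groups remained apart, with a log2 fold change of −3.03 ± 0.45 (adjusted p = 3.89e-04). Cldn10 (claudin 10), a tight junction protein, was at 6.58, 5.83 and 3.64 CPM with the empty vector and 1.07, 1.07 and 0.738 CPM with Y665F, with a log2 fold change of −2.46 ± 0.28 (adjusted p = 3.34e-05). Cybb, the catalytic subunit of the phagocyte NADPH oxidase, was at 5.65, 5.17 and 5.14 CPM with the empty vector and 0.611, 0.877 and 1.52 CPM with Y665F, with a log2 fold change of −2.43 ± 0.46 (adjusted p = 0.00276); the macrophage markers in these libraries summed to less than 10 CPM in both groups. Lox, an enzyme that cross-links collagen, was at 2.29, 1.03 and 1.79 CPM with the empty vector and 0.428, 0.261 and 0.287 CPM with Y665F, and Rph3a (rabphilin), a Rab3 effector, at 6.44, 5.65 and 5.11 CPM with the empty vector and 1.44, 0.617 and 1.85 CPM with Y665F. These gave −2.38 ± 0.50 (adjusted p = 0.00534) and −2.17 ± 0.35 (adjusted p = 7.29e-04). Bambi-ps1, a pseudogene whose reads may partly belong to its parent gene, was at 21.7, 16.6 and 7.29 CPM with the empty vector and 4.03, 3.87 and 2.34 CPM with Y665F, with a log2 fold change of −2.14 ± 0.33 (adjusted p = 5.45e-04). Hgf (hepatocyte growth factor), Cdh3 (P-cadherin), BC094916 and Grin2c, an NMDA receptor subunit, followed at −1.96 ± 0.36 (adjusted p = 0.002), −1.95 ± 0.36 (adjusted p = 0.00215), −1.94 ± 0.41 (adjusted p = 0.00525) and −1.88 ± 0.44 (adjusted p = 0.0113), each at most 6.25 CPM in any library and without overlap. Grin2c was not called without replicate 1 or 2 of Y665F (adjusted p = 0.0705 and 0.0727), and its log2 fold change was −2.51 without replicate 3 of Y665F.

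Placed beside unmutated STAT5B in the same null cells, Y665F gave higher levels of Nppc and Rai14. This direct contrast called 2 genes of 20113 (0.00994%), both higher with Y665F and 0 lower. An unadjusted p under 0.05 was found for 1000 genes, near the share of 0.05 that genes without any difference would give. Nppc, the precursor of C-type natriuretic peptide, was at 16.4, 17.4 and 15.3 CPM with Y665F and 2.95, 2.52 and 3.72 CPM with STAT5B, beside 0.588, 0.363 and 1.54 CPM with the empty vector. The constructs did not overlap, with a log2 difference of 2.43 ± 0.28 (adjusted p = 0.00213). Rai14 (ankycorbin), an actin-associated protein, was at 25.97, 24.3 and 20.5 CPM with Y665F and 9.93, 7.33 and 9.59 CPM with STAT5B, beside 6.04, 5.801 and 8.36 CPM with the empty vector, a difference of 1.4 ± 0.19 (adjusted p = 0.00716). Against the empty vector itself Nppc rose by 4.34 ± 0.33 (adjusted p = 2.35e-07) and Rai14 by 1.81 ± 0.19 (adjusted p = 1.32e-05); without replicate 3 of the controls the value for Nppc was 5.09. Leaving out replicate 2 of STAT5B gave 0 calls, with 1082 genes at an unadjusted p under 0.05, replicate 1 of Y665F 1 and replicate 3 of Y665F 35, and DESeq2 called 27. The block raised the calls to 38 genes higher and 1 lower.

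The genes described next, which rose or fell strongly against the empty vector, did not pass this test in the main fit, which has no block. Same-numbered libraries of Y665F and STAT5B deviated together (correlations 0.412, 0.416 and 0.701), and values with the block are not given for these genes. Lta was at 113, 98.7 and 59.7 CPM with STAT5B, below every Y665F library, and the log2 difference was 1.64 ± 0.32 (adjusted p = 0.101). Socs2 was at 139, 131 and 86.6 CPM with STAT5B and differed by 1.14 ± 0.28 (adjusted p = 0.319). Cish was at 234, 222 and 163 CPM and differed by 0.61 ± 0.29 (adjusted p = 0.987), and Il2ra was at 1117, 899 and 740.3 CPM and differed by 0.69 ± 0.21 (adjusted p = 0.628). Bcl6 was at 11.5, 9.72 and 14.04 CPM with STAT5B, above every Y665F library, a log2 difference of −0.65 ± 0.21 (adjusted p = 0.749). The Stat5b transcript itself differed by −0.19 ± 0.29 (adjusted p = 1), with levels of 369, 348 and 253 CPM under STAT5B. A difference that misses the threshold here does not show that the constructs act alike.

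Against N642H, 0 of 20113 genes (0%) were called, and 181 had an unadjusted p under 0.05. DESeq2 called 0 as well, with 106 such genes. Both counts are far below the share of 0.05 that genes without any difference would give. The main fit has no block, while same-numbered libraries of the 2 mutants deviated together (correlations 0.624, 0.631 and 0.653). With the block, edgeR gave 239 such genes and called 0. These tests do not show that the mutants act alike. Cish was at 347, 374 and 271 CPM, Il2ra at 1710.5, 1858 and 1316 CPM and Lta at 357, 371 and 198 CPM with N642H, and each of these ranges overlapped that of Y665F. The log2 differences, Y665F minus N642H, were −0.07 ± 0.29 (adjusted p = 1), −0.13 ± 0.21 (adjusted p = 1) and −0.13 ± 0.31 (adjusted p = 1). Nppc and Rai14, which separated Y665F from STAT5B, were at 17.8, 17.9 and 15.5 CPM and 28.9, 23.9 and 17.8 CPM with N642H. They differed from Y665F by −0.06 ± 0.26 (adjusted p = 1) and 0.00 ± 0.18 (adjusted p = 1). Bcl6 was at 5.902, 6.59 and 6.63 CPM with N642H, again overlapping with Y665F (log2 difference 0.23 ± 0.21, adjusted p = 1).

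**Figure D5:**
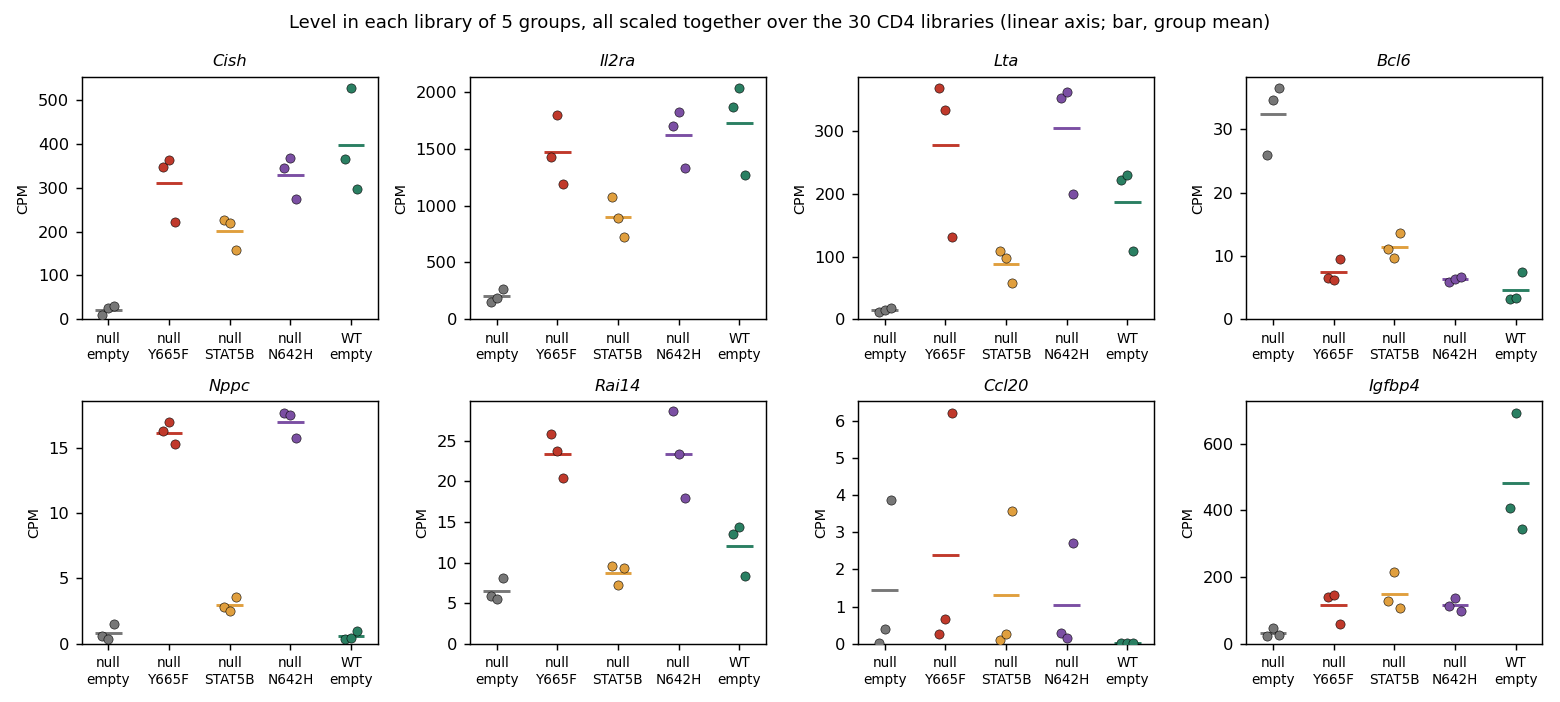
Level in CPM (linear axis) of 8 transcripts in each library of 5 groups, scaled together over the 30 CD4 libraries: null cells with the empty vector, Y665F, STAT5B or N642H, and WT cells with the empty vector; bars are means of 3 libraries. Nppc and Rai14 separate Y665F and N642H from STAT5B, Ccl20 is high in replicate 3 of every null group, and Igfbp4 stays below the WT libraries in every null group.

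The last comparison set the Y665F libraries beside WT cells with the empty vector, which carry their own Stat5a and Stat5b and no construct. Construct and background change together here and cannot be told apart. In a fit of 30 CD4 libraries, 220 of 21975 genes (1%) were called, 156 higher in the null cells with Y665F (0.71%) and 64 lower (0.291%). Adding the block gave 446 genes, 324 higher and 122 lower, and DESeq2 gave 353. Leaving out replicate 3 of Y665F, or replicate 1 or 2 of the WT cells, left 107, 108 and 92 genes. Stat5b itself was at 187, 209 and 207 CPM in WT cells and 221, 332 and 286 CPM with Y665F in this fit. Every Y665F library thus held more than every WT library, with a mean at 139% of WT. The gene was not called (log2 difference 0.47 ± 0.25, adjusted p = 0.454), and the part of this level in the differences below was not tested.

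Several transcripts raised by Y665F were not called against WT cells. Cish was at 366, 526 and 298 CPM in WT cells, Il2ra at 1864, 2033 and 1266 CPM and Socs2 at 299.8, 336 and 197 CPM, and the log2 differences, Y665F in null cells minus WT, were −0.35 ± 0.27 (adjusted p = 0.663), −0.23 ± 0.23 (adjusted p = 0.745) and −0.10 ± 0.27 (adjusted p = 0.931). For each of these the groups overlapped. Others were higher than in WT cells. Nppc was at 0.372, 0.422 and 1.01 CPM in WT cells against 16.3, 16.96 and 15.3 CPM with Y665F in this fit, a difference of 4.71 ± 0.37 (adjusted p = 7.55e-09). Ccl3 was at 8.93, 7.69 and 14.2 CPM in WT cells (log2 difference 2.33 ± 0.32, adjusted p = 9.32e-05), Irf8 at 55.9, 40.3 and 17.6 CPM (log2 difference 2.48 ± 0.54, adjusted p = 0.0131), and Il9 at 0.0572, 0.0704 and 0.0842 CPM (log2 difference 4.34 ± 0.80, adjusted p = 0.00341). H19 was at 0.572, 0.305 and 0.379 CPM (log2 difference 4.88 ± 0.94, adjusted p = 0.00408).

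Some genes called against WT cells were at similar values in null cells with the empty vector. Nts (neurotensin) was at 0.114, 0.0469 and 0.295 CPM in WT cells, 1.55, 4.03 and 12.3 CPM with Y665F and 2.28, 4.75 and 13.6 CPM with the empty vector in null cells. Its rise over WT was 5.21 ± 0.84 (adjusted p = 6.72e-04), and replicate 3 was the highest in both null groups. Ccl20, a chemokine of type 17 cells, was at 0.0286, 0.0235 and 0.02104 CPM in WT cells, 0.273, 0.672 and 6.21 CPM with Y665F and 0.0275, 0.406 and 3.87 CPM with the empty vector in null cells (log2 difference 6.42 ± 1.71, adjusted p = 0.049). Its call did not hold with RLE scaling or without any 1 library other than replicate 1 of Y665F (adjusted p between 0.0534 and 0.458), and without replicate 3 of Y665F the log2 difference was 4.13. Tbx21 was at 1.202, 0.915 and 0.694 CPM in WT cells, below each null library with either vector, a log2 difference of 3.81 ± 0.68 (adjusted p = 0.00221) for Y665F. Gprin2 had 0 reads in the WT libraries and at most 0.182 CPM with Y665F, too few for a fold, and its call was lost without any 1 of the 6 libraries (adjusted p between 0.0785 and 0.191).

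Others fell short of the WT level despite Y665F. Stat5a, absent from the vector, differed by −5.08 ± 0.57 (adjusted p = 5.86e-06). Igfbp4 was at 408, 693 and 344 CPM in WT cells and 142, 146 and 58.6 CPM with Y665F in this fit, a difference of −2.06 ± 0.33 (adjusted p = 6.72e-04). Lrrc32 was at 82.1, 116 and 44.4 CPM in WT cells (log2 difference −1.79 ± 0.43, adjusted p = 0.0256). Prss12 (neurotrypsin) was at 6.78, 9.38 and 4.33 CPM in WT cells and 0.667, 0.626 and 0.0408 CPM with Y665F, and Pdlim4, a cytoskeletal adaptor, at 5.49, 11.6 and 2.25 CPM in WT cells and 0.698, 0.487 and 0.163 CPM with Y665F. Both overlapped with the empty vector in null cells, at 0.3298, 0.522 and 0.414 CPM for Prss12 and 0.3298, 0.493 and 0.311 CPM for Pdlim4, and the differences from WT were −3.85 ± 0.53 (adjusted p = 9.32e-05) and −3.79 ± 0.64 (adjusted p = 0.00115). Sorcs2, a sorting receptor, was at 9.5, 11.96 and 5.03 CPM in WT cells, 2.396, 1.55 and 0.694 CPM with Y665F and 0.137, 0.435 and 0.483 CPM with the empty vector (log2 difference −2.49 ± 0.47, adjusted p = 0.00364). A630023P12Rik, a transcript without an assigned name, was at 6.81, 4.86 and 4.54 CPM in WT cells and 0.637, 1.25 and 1.06 CPM with Y665F (log2 difference −2.45 ± 0.38, adjusted p = 4.04e-04).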

How the data were processed

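Total RNA of sorted CD4+GFP+ cells was depleted of ribosomal RNA and sequenced as paired-end stranded libraries. The authors trimmed the reads with Trimmomatic 0.36, aligned them to mm10 with STAR and counted them per gene with HTSeq 0.9.1, with versions from the submitters' processing notes. Raw counts, not normalized, were deposited for 24421 genes by symbol and 5 closing lines that name no gene. These lines entered neither the library sizes nor the tests and held between 29.5% and 34.2% of the reads in the 6 libraries compared. The strand setting and the annotation of the counting are not given in the sources used here. Of the 61 files, 30 of CD4+ T cells were used.

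The tests were run with edgeR 4.0.16 and limma 3.58.1 under R 4.3.3. Each condition was a group, genes with at least 10 reads over the libraries of a fit were kept, and TMM factors, glmQLFit and glmQLFTest were applied with Benjamini-Hochberg adjustment. The fit of the 15 null libraries has 10 residual degrees of freedom. A call required an adjusted p under 0.05 together with more than a 2-fold difference. CPM were scaled with the TMM factors. Each standard error was derived from the F statistic of the fold change. The methods of the study name DESeq2 and RUVSeq; RUVSeq was not used here. Replicates of a group differed by far more than counting noise.

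Named are Stat5b, Stat5a and genes that the paper names for these cells; the 12 genes called with the largest rise and the 12 with the largest fall at a mean of at least 1 CPM without overlap of the groups; the 10 with the largest gain and the 10 with the largest loss of level; marked members of 24 gene lists, with up to 4 further called members of each; and up to 5 called genes in each direction for the other contrasts. Other genes named were chosen after their values were seen. A few genes of the rule are not reported here. The members, lists and comparisons were chosen with earlier results of these data known. Gene positions, promoters and biotypes come from RefSeq on GRCm38.p6, where 19181 of the 20113 symbols matched.

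Replicate numbers paired the libraries: the deviations from the group means correlated above 0.1 in 30 of 30 pairs of null libraries with the same number (median 0.465, over 11477 genes), and between 0.384 and 0.606 for Y665F and the empty vector. The labels do not say what a number shares. Alternatives were RLE size factors, DESeq2 1.42.0, filterByExpr, no filter, a fit of the compared groups alone, the replicate number as a block, no minimum fold and leaving out each library. On simulated data for Y665F against the empty vector, 195 of 200 genes changed 4-fold were recovered, with 6 false calls among 19521 genes tested. The simulated libraries were drawn independently, without the deviations shared by replicate number, and the genes changed had at least 1 CPM. The recovery of smaller changes and of rarer genes was not tested.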

Additional observations from a re-analysis of the deposited data

How the results depend on the processing

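Y665F against the empty vector gave 315 to 643 calls when 1 library was left out (476 with all, fewest without replicate 2 of Y665F, most without replicate 3 of Y665F), 650 with the replicate block, and 1927 without a minimum fold. Against STAT5B the count of 2 became 16 without a filter on low counts, 39 with the replicate block, 4 without a minimum fold, 27 with DESeq2, and 0 to 35 without 1 library. Against WT cells the count of 220 became 446 with the replicate block, 381 without a minimum fold, 353 with DESeq2, and 92 to 294 without 1 library. Against N642H each alternative gave 0. Of 1637 values of the 126 genes named, 1467 kept their direction and their side of the threshold, 125 lost the call, 16 gained it and 29 changed sign. The cause of these changes was not tested. Among these 126 genes, the block ended the calls of Vim and Phgdh, added Il12rb2 and changed no other call, and of the other genes named in the text it added Mx2, Oas1a, Gbp6 and Iigp1.

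Signs changed only in genes that were not called. The log2 fold change of Il2 was 0.00685 with RLE factors, 0.0132 with DESeq2 and 0.0204 in a fit of the 6 libraries alone, that of Tbx21 0.0841 with the replicate block and 6.18e-05 in the 6 libraries alone, and that of Prf1 −0.0059 with filterByExpr and −0.00313 without a filter. Leaving out 1 library moved it between −0.4 and 0.955 for Stat5a, −0.615 and 0.445 for Il2, −0.636 and 0.911 for Ifng, −0.706 and 0.869 for Tbx21, −1.31 and 0.349 for Il21, −0.279 and 0.14 for Klf2, −0.786 and 1.12 for Gzmb, −0.38 and 0.502 for Prf1, −1.05 and 0.194 for Isg15, and −1.14 and 0.00897 for Mx1.

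With 3 libraries a group and 10 residual degrees of freedom, calls at a low level rest on few reads, such as 4 control reads for Il13 and 5 for Il4. Vim, Phgdh, Cd27, Itm2a, Ms4a4b, Ms4a6b, Slamf6, Il6st, Rgs10, Ifi203, Pim3, Slc7a5, Klf6, Btg2 and Cd160 fell below the fold minimum without at least 1 library, to log2 sizes of 0.825 to 0.998, and their adjusted p was at most 0.0266.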
